A study of Mus musculus with 3 samples.

Results

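Matrix metalloproteinases (MMPs), ADAMTS proteases and tissue inhibitors of metalloproteinases (TIMPs) were followed across Pthrp-mCherry+ cells sorted from mouse molars. The members were every gene whose symbol is Mmp, Adamts or Timp followed by a number, without the ADAMTS-like genes, and they comprised 46 genes: 23 Mmp, 19 Adamts and 4 Timp genes, of 21446 genes shared by the 3 count tables. The members were taken by name with no cut on a measured value, but earlier results of these data were known when they were chosen. One of them, Mmp1a, was absent from the gene list of the P25 library, which left 45 members in all 3. The cells came from molars of the mandible of Pthrp-mCherry knock-in mice at P15, P25 and 8 weeks (P8w), in which the fluorescent protein is made where the parathyroid hormone-related protein gene is active. The submitters named the sorted cells cementoblasts, the cells that lay down cementum on the tooth root, and their precursors. Cells were pooled from mandibles before sorting, and each age is 1 droplet library made with a 3' kit that counts each captured molecule once through a unique molecular identifier (UMI). All groups carry the reporter allele, and no sample without it is among them.

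The P15, P25 and 8-week libraries held 12926, 8971 and 5192 cells, with medians of 14253.5, 15834 and 8712.5 UMIs per cell, and pairs of libraries shared 13 to 26 cell barcodes. Because the ages are 1 library each, differences between ages were not tested, and intervals given for a single library cover counting error only. The P25 table was written by another software version than the other 2 and lists 32293 genes instead of 22056, so P25 as an age and this difference in processing cannot be told apart. Cells were sorted by UMIs of 8 marker genes into 9 gates, with Ibsp-positive cells divided by Hand2. A cell that passed several mesenchymal gates was placed in the first of Ifitm5, Ibsp, Rgs5, Dio2 and Hand2. Ibsp-positive cells below are thus those that did not pass the Ifitm5 gate. At P15, P25 and 8 weeks there were 1409, 790 and 546 Ibsp-positive cells without Hand2, 35, 692 and 572 Ibsp-positive cells with Hand2, 346, 569 and 182 Ifitm5 cells, 239, 392 and 244 Hand2 cells and 324, 486 and 66 Dio2 cells. The Rgs5 gate held 199, 11 and 8 cells, the Krt14 gate 1381, 895 and 124, the Csf1r gate 385, 172 and 25 and the S100a8 gate 405, 12 and 4. A further 7987, 4612 and 3188 cells passed no gate, the largest class in every library. Levels are given as CPM, the UMIs of a gene per 1000000 UMIs of the summed cells of a gate, and values given in a series of 3 are in the order P15, P25 and 8 weeks. A transcript gives 1 UMI per captured molecule whatever its length, so levels do not scale with length. Whether different genes are captured equally well was not measured, so levels set side by side compare UMIs.

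Marker lists checked the gates. The 4 Dio2-gate markers (Il1rl1, Htra1, Itgbl1 and Spon1) summed to 3047 to 5039.7 CPM in the Dio2 cells of the 3 libraries. Sums of this list in other gates are not given here, so it does not show that these markers are particular to Dio2 cells. At P15, 136 of the 324 Dio2 cells also held epithelial UMIs, as described with Mmp11. The 5 Hand2-gate markers (Nts, Alx1, Tnn, Csrp2 and Lrrc17) summed to 3965 to 8466 CPM in Hand2 cells and to 3553 to 4744 CPM in Ibsp cells with Hand2. The cementoblast list (Dmp1, Enpp1, Wnt5a, Ank and Bglap) reached 3967 to 9909.8 CPM in Ibsp cells without Hand2, 916 to 1390.5 CPM in those with Hand2 and 10497 to 25798 CPM in Ifitm5 cells. Epithelial, macrophage and neutrophil lists were highest in the Krt14, Csf1r and S100a8 gates, so these 3 gates hold cells that are neither cementoblasts nor the precursors the labels name. Mural markers reached 2991 CPM in the Rgs5 gate at P15 but 565 and 275 CPM in the 11 and 8 cells found there at P25 and 8 weeks, and the S100a8 gate held 12 and 4 cells at those ages. Values of these last 2 gates therefore rest on P15, and no test was made for them.

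MMPs are zinc endopeptidases made as inactive precursors, and their groups differ in substrate. Collagenases open the triple helix of fibrillar collagen, gelatinases digest denatured collagen and basement membrane collagen, stromelysins digest a wide range of matrix proteins and activate other MMPs, and membrane-type MMPs act at the cell surface. ADAMTS proteases are secreted and bind matrix through thrombospondin repeats: one group trims the N-propeptide of procollagens, another cleaves aggrecan, versican and related proteoglycans, and a pair can cleave cartilage oligomeric matrix protein. TIMPs bind the active site of these enzymes and block it, and TIMP3 is known for staying bound to the matrix and for inhibiting ADAMTS proteases as well. In the periodontium, collagen is turned over fast in the ligament, which is anchored in cementum on one side and in bone on the other.

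A cluster of 10 Mmp genes (Mmp13, Mmp12, Mmp1b, Mmp3, Mmp1a, Mmp10, Mmp8, Mmp27, Mmp20 and Mmp7) lies on chr9:7272514-7699585 of the GRCm38 build (GENCODE annotation, as for all gene positions given here), a span of 427 kb. At P15 several of these genes had a far higher level in 1 gate than in the others: Mmp3 and Mmp10 in Dio2 cells, Mmp12 in Csf1r cells and Mmp8 in S100a8 cells. The promoters of the cluster are shown because its secreted MMPs are textbook targets of AP-1, a transcription factor that binds TGAGTCA and its reverse complement TGACTCA. Of the members, 32 were matched by symbol to RefSeq start sites of GRCm38.p6. The 250 bases before the start held the 7-letter motif on either strand in 7 of the 10 cluster genes and in 0 of the 22 other matched members. Counted by start, 7 of the 12 cluster starts held it, against 4.46% of all 32851 starts. The motif was chosen for its known link with these genes, so the contrast is no independent support. Mmp8, Mmp20 and Mmp27 lacked the motif, and Mmp8 reached 1826 CPM in S100a8 cells at P15. Mmp1a, Mmp1b and Mmp7 held the motif but had 4, 0 and 0 UMIs at P15. Windows of 60 bases around the motif are printed for the other 4 of the 7 genes with it. They lie on the plus strand of chr9:7445750-7445809 for Mmp3, chr9:7502253-7502312 for Mmp10, chr9:7272453-7272512 for Mmp13 and chr9:7347304-7347363 for Mmp12, with the motif in capitals:
Mmp3: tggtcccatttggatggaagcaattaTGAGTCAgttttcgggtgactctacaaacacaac
Mmp10: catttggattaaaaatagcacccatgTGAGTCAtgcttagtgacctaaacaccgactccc
Mmp13: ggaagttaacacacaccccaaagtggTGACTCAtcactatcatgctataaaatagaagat
Mmp12: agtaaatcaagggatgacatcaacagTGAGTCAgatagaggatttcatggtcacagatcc
The first base of the motif lay 46 bases before the start of Mmp3, 63 before Mmp10, 35 before Mmp13 and 44 before the second of 2 annotated starts of Mmp12. All 4 windows hold the motif because they were cut around it. Among gates of at least 20 cells, Mmp3 and Mmp10 were highest in Dio2 cells at all 3 ages, Mmp13 in Dio2 cells at P15 and P25 and Mmp12 in Csf1r cells at P15 and P25. A match of letters describes the sequence and was not tested as a binding site.

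Of 45 members listed in all 3 libraries, 36 were detected in some gate of each library, and 13 of these had the same highest gate at all 3 ages. At least 50 CPM in some gate of at least 2 libraries was reached by 17 members, and Mmp8, Adamts7 and Adamts17 were added as the highest of their groups (collagenases, the pair that cleaves cartilage oligomeric matrix protein, and ADAMTS genes of no other group). These 20 are described by gate and library, and others named below were picked after their values were seen. Mmp1b and Mmp7 had 0 UMIs in all 27089 cells. In Ibsp cells without Hand2, TIMP transcripts summed to 2662 CPM at P15, 2473 at P25 and 3121 at 8 weeks. That was 1.35, 1.05 and 1.31 TIMP UMIs for each protease UMI of the family, and Ibsp cells with Hand2 had 1.37, 1.24 and 1.42. Dio2 cells stood at the other end of the mesenchyme, with 0.173, 0.428 and 0.478, and Hand2 cells lay between, with 0.602, 0.671 and 0.748. The cells with at least 10 Mmp3 UMIs (27, 10 and 4) weighed on the first of the Dio2 values, since without them the ratios were 0.293, 0.436 and 0.501. Without the Dio2 cells that held at least 5 epithelial UMIs (136, 5 and 0, described with Mmp11) they were 0.147, 0.428 and 0.478. Both ways of dividing the cells were chosen after the values were seen, and under either Dio2 cells stayed below the Hand2 cells of every age. Across ages the Dio2, Hand2 and Ibsp values did not overlap, while the 2 Ibsp gates overlapped each other and Ifitm5 cells, with 1.02, 0.687 and 1.10, overlapped both Hand2 and Ibsp cells. These ratios count UMIs and say nothing of enzyme activity, since the proteases are made as precursors.

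**Figure D1:**
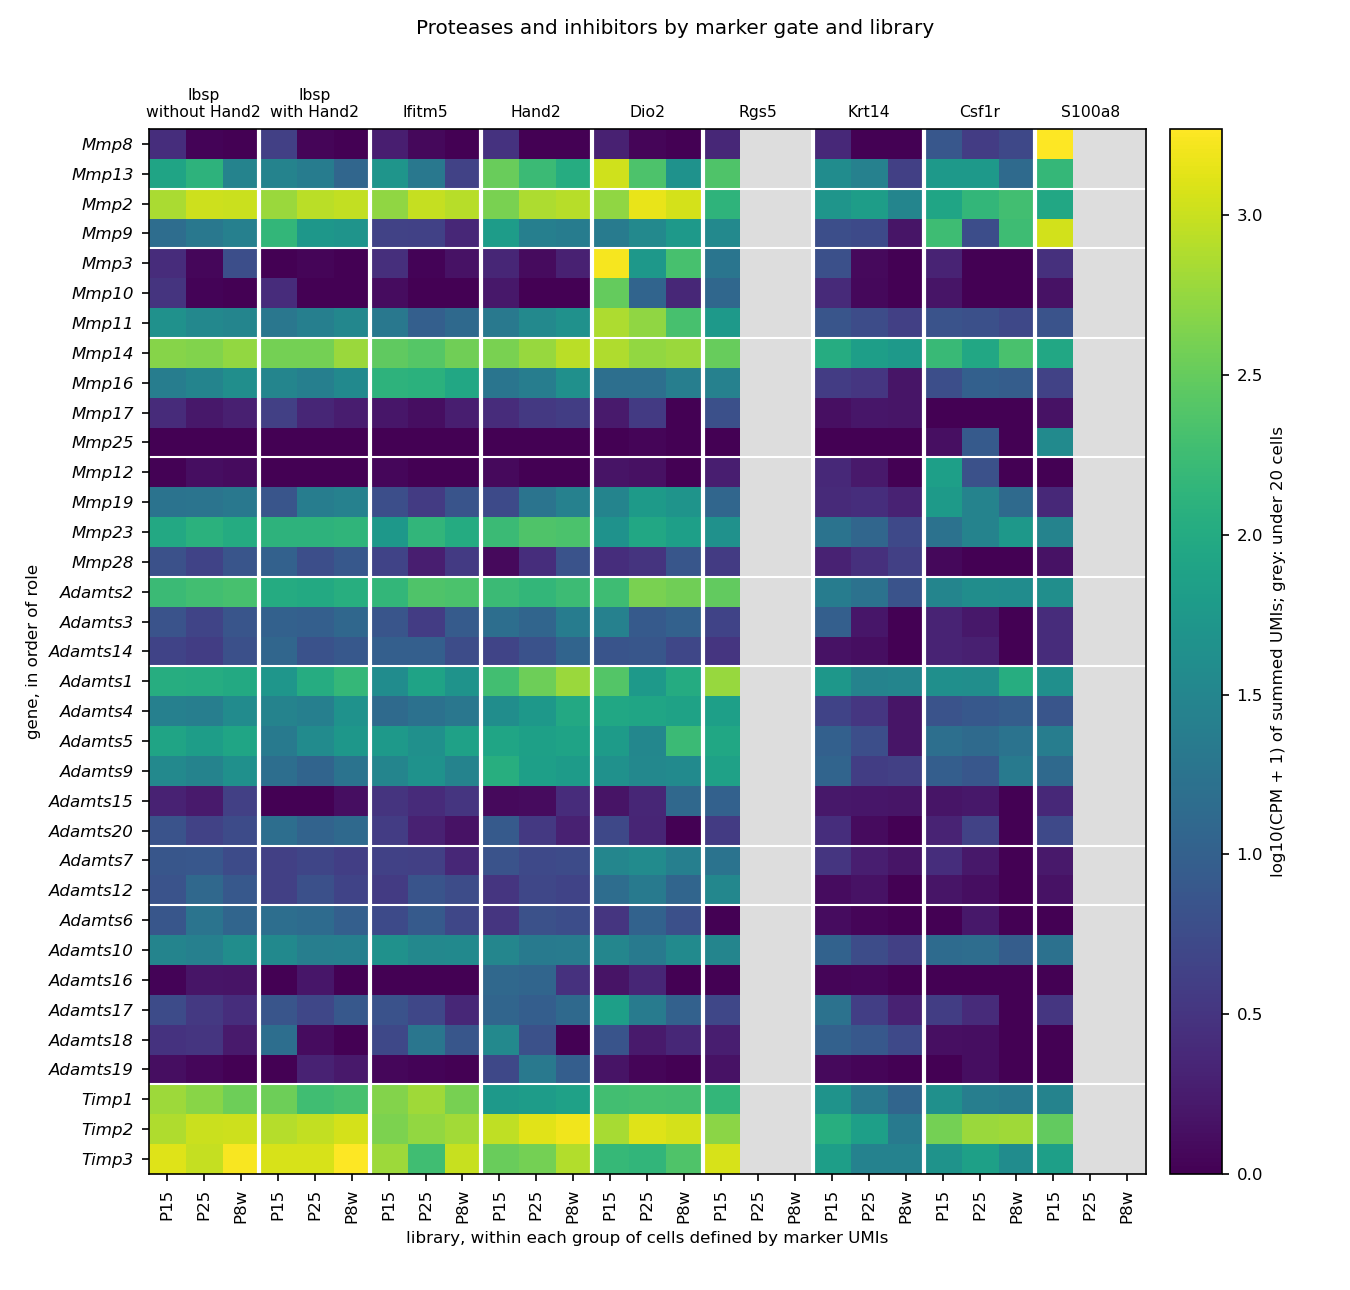
Level of each member (rows; members with at least 5 CPM in some gate) in each gate and library (columns, P15, P25 and 8 weeks within a gate), as log10(CPM + 1) in color from dark (0) to yellow (high), with grey for gates of under 20 cells. Mmp8 and Mmp9 are brightest in the S100a8 column, Mmp3, Mmp10 and Mmp11 in the Dio2 columns at P15, and Timp3 in the Ibsp columns, while Krt14 cells are dark in most rows.

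The comparisons between gates asked which proteases and inhibitors differ between the cells that hold each marker. UMIs were summed by gate and library and tested for 14238 genes, 38 of them members, with edgeR's quasi-likelihood test and the library as a term. A gene was called at a Benjamini-Hochberg adjusted p under 0.05 over all genes with a log2 fold change above 1 in size. Dio2 against Hand2 cells gave 7 members higher, where 7.53% of all tested genes were called higher, and 5 lower, where 4.35% were called lower, so both shares of the 38 members were above the background. Ibsp cells without Hand2 against Hand2 cells gave 4 higher (background 3.65%) and 3 lower (1.95%), again above it. Adamts16 and Adamts19, lower in both comparisons, passed the filter on low counts only through Hand2 cells. Their direction was thus largely fixed in advance. They are among the 5 members lower in Dio2 cells, and all but Adamts17 of the 3 lower in Ibsp cells. The calls also include Mmp3, higher in Dio2 cells, Timp3, higher in Ibsp cells, and Mmp23, lower in Dio2 cells. These 3 genes were known from earlier results of these data when members and gates were chosen. The shares therefore describe these calls and are no independent support. The counts of both comparisons lean on P25: without that library they were 1 (1 higher, 0 lower) for Ibsp and 5 (5 higher, 0 lower) for Dio2 cells, and without 8 weeks the Ibsp count was 4. Among the Ibsp and Ifitm5 gates, Ifitm5 cells against Ibsp cells without Hand2 gave 1 member higher (1.00%) and 1 lower (1.40%), and Ibsp cells with Hand2 against those without gave 0 higher (0.421%) and 1 lower (2.04%). Single calls like these are no result about the family, and leaving out 1 library moved their number from 2 to between 0 and 4 and from 1 to between 0 and 5. For the 0, edgeR gave 11 members of either direction at an unadjusted p under 0.05, and DESeq2 called 0 higher and 4 lower. Against the mean of the 6 mesenchymal gates, Krt14 cells had 2 members higher (16.8% of all genes) and 22 lower (16.5%), and Csf1r cells had 6 higher (19.5%) and 21 lower (13.8%). Of the 6 higher in Csf1r cells, only Mmp8 was called without P15: Mmp9 and Mmp19 lost the call, and Mmp12, Mmp25 and Mmp27 did not pass the filter on low counts. With all libraries, Mmp12, Mmp25 and Mmp27 passed that filter through no mesenchymal gate, so the direction of their calls was largely fixed in advance. The number higher was 4 without P25 and 5 without 8 weeks, and the number lower 21, 16 and 22 without P15, P25 and 8 weeks. In both gates, the share of members called higher was under the background and the share called lower over it. Krt14 cells had a median log2 fold change of -2.01 over the 38 members against 0.07 over all genes tested, and Csf1r cells a median log2 fold change of -2.05 over the 38 members against 0.06 over all genes tested. For the 2 gates that rest on P15, a log2 ratio of CPM + 1 above 1 in size stood in for the test. Rgs5 against Hand2 cells then had 12 members higher (11.3%) and 9 lower (6.63%), and S100a8 cells against the mesenchymal mean had 4 higher (11.4%) and 26 lower (38.6%). In Rgs5 cells both shares of the 38 members were above the background. In S100a8 cells the share higher was near it and the share lower above it. S100a8 cells had a median log2 fold change of -1.55 over the 38 members against -0.71 over all genes tested, so genes at large sat low on this scale there. Leaving out a library could not be tried for these 2 gates.

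**Figure D2:**
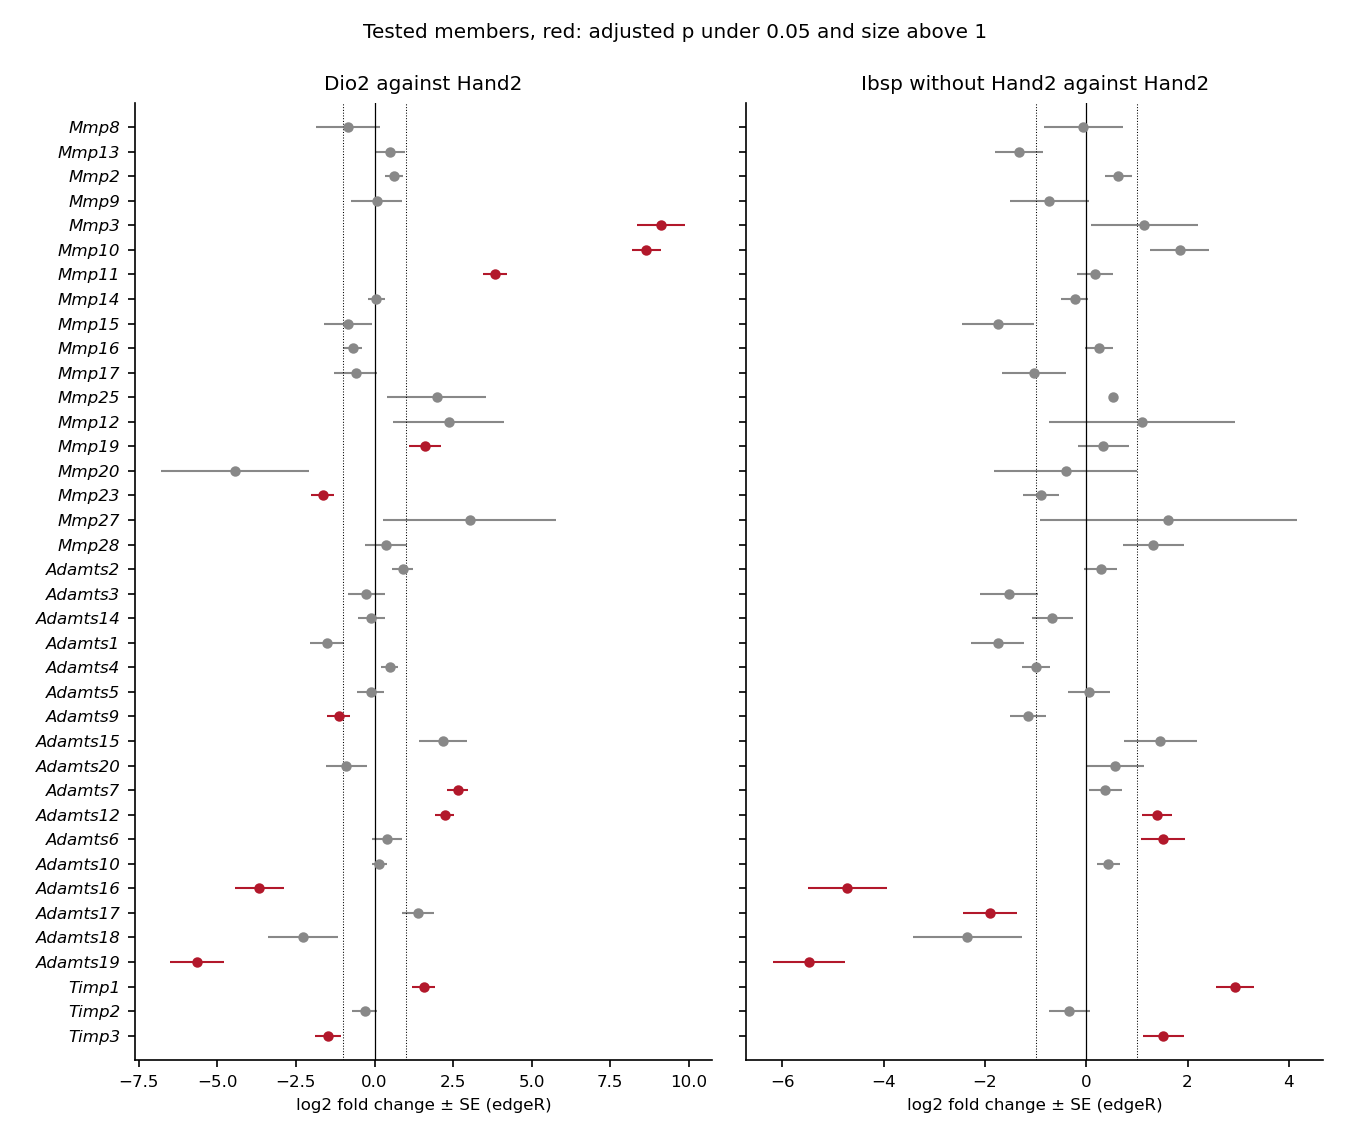
Log2 fold change (horizontal axis) of the 38 tested members (rows) in Dio2 against Hand2 cells (left) and Ibsp cells without Hand2 against Hand2 cells (right), with bars of 1 SE where an SE could be had, called members in red and dotted lines at -1 and 1. Mmp3 and Mmp10 lie farthest to the right on the left side and Timp1 farthest to the right on the right side, and Adamts16 and Adamts19 lie to the left in both.

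Stromelysins were highest in Dio2 cells. Mmp3 (stromelysin 1, chr9:7445822-7455975), which digests proteoglycans, laminin and fibronectin and activates procollagenases, stood at 1669 CPM (P15), 54.2 CPM (P25) and 209.7 CPM (8 weeks) in Dio2 cells. Hand2 cells had 1.22, 0.264 and 0.982 CPM, from 6, 2 and 3 UMIs, and no gate of at least 20 cells other than Dio2 passed 17.7 CPM. The Dio2 level was 1365-fold (counting interval 627 to 3721) that of Hand2 cells at P15, 205-fold (counting interval 56.6 to 1701) at P25 and 214-fold (counting interval 71.7 to 1046) at 8 weeks, so the gates did not overlap at any age. It was called by edgeR's test (adjusted p = 1.89e-06, higher in 3 of 3 libraries), and no alternative tried ended the call. That Mmp3 goes with these cells was known when the gate was picked, so the comparison describes them. Few cells carried it. A UMI of Mmp3 was found in 51 of 324, 28 of 486 and 14 of 66 Dio2 cells, in the order of the ages, and the 10 richest cells held 89.5%, 91.7% and 97.5% of the gate's Mmp3 UMIs. After each cell was thinned to 3000 UMIs, 12.1%, 3.09% and 14.1% of Dio2 cells had a UMI, against 0.444% of Ibsp cells without Hand2 at P15, which stand for background here. Before thinning the P15 shares were 15.7% and 2.34%, at median depths of 11579.5 and 14806 UMIs. The Mmp3 level of the gate was thus set by a small number of very rich cells at each age, and it differed 30.8-fold (counting interval 28.1 to 33.7) between P15 and P25 with intervals that do not take this clustering into account. Dio2 cells held 75.4% of all Mmp3 UMIs at P15 and 73.0% at P25, but 20.9% at 8 weeks, when 75.5% lay in cells of no gate.

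**Figure D3:**
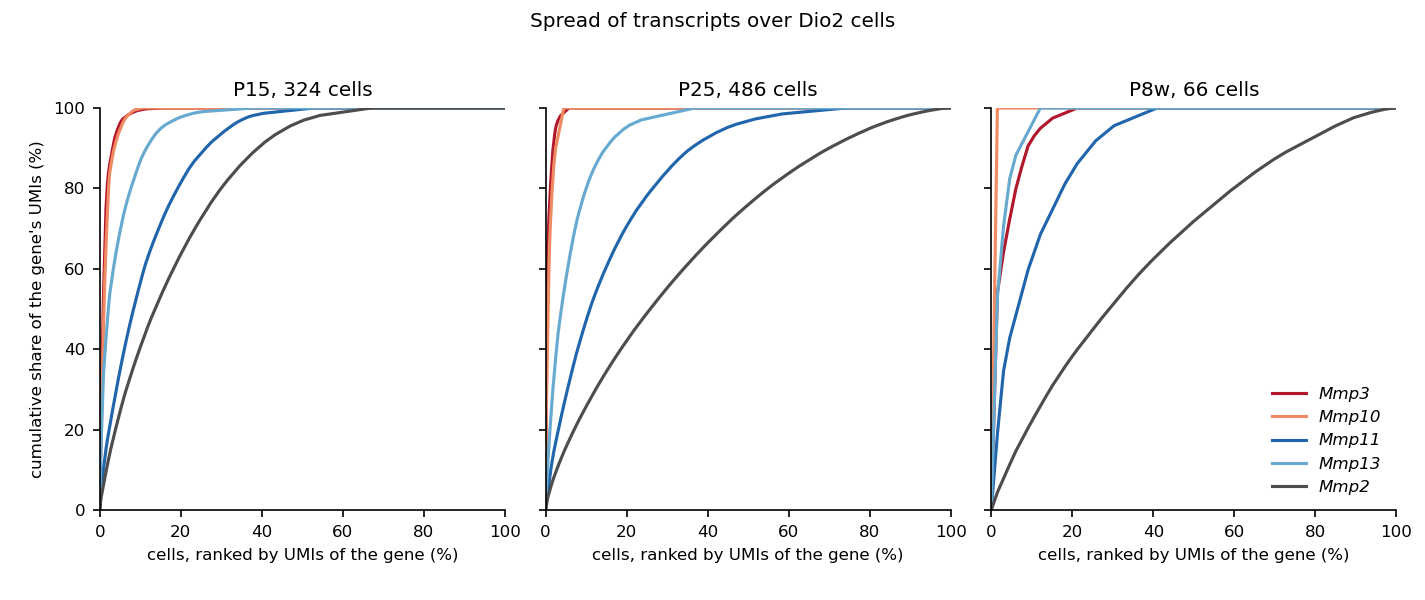
Cumulative percent of a gene's UMIs in Dio2 cells (vertical axis) against the percent of Dio2 cells, ranked from the richest (horizontal axis), by library. Mmp3 climbs almost at once, with 10 cells holding 89.5% to 97.5% of its UMIs, while Mmp11 is spread over far more cells.

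Mmp10 (stromelysin 2, chr9:7502352-7510240), the neighbour of Mmp3 in sequence and substrates, was highest in the same gate at lower levels, with 309 CPM (P15), 10.4 CPM (P25) and 1.32 CPM (8 weeks), the last from 1 UMI. Hand2 cells had 3 UMIs at P15 and 0 at the other ages, where 0 allows up to 0.396 and 0.982 CPM, and the P15 ratio was 506-fold (counting interval 173 to 2458). It was called (adjusted p = 9.76e-09, not tested without P15), on P15 and P25 values to which 8 weeks adds that 1 UMI. Mmp10 was also called lower in Ifitm5 against Ibsp cells without Hand2 (adjusted p = 0.0246), but from levels of at most 2.15 CPM, and 6 of 13 alternatives ended that call, among them DESeq2 and leaving out a library, without P25 (adjusted p = 0.159) or without 8 weeks (adjusted p = 0.166). Dio2 cells with at least 10 Mmp3 UMIs, 27 cells at P15, held 2092 CPM of Mmp10 against 84.3 CPM in the other 297 Dio2 cells, and 5352 against 529 CPM of Mmp13. Mmp11 differed little, at 693 and 742 CPM. The same 3 genes at P25, in 10 rich cells, had 115 against 8.72 CPM for Mmp10, 998 against 215 CPM for Mmp13 and 539 against 534 CPM for Mmp11. These are cells of 1 library each, split after the values were seen, and no test was made of the split.

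Mmp11 (stromelysin 3, chr10:75923222-75936496), which is activated inside the cell by furin, was high in Dio2 cells and spread over many of them. Its levels there were 737 CPM (P15), 534 CPM (P25) and 209.7 CPM (8 weeks), against 20.2, 33.5 and 43.9 CPM in Hand2 cells, and 8.73 to 43.8 CPM in the 3 Ibsp and Ifitm5 gates. The difference from Hand2 cells was called (log2 fold change 3.83 ± 0.39 SE, adjusted p = 8.05e-06, higher in 3 of 3 libraries) and no alternative ended the call. The ratio to Hand2 cells was 36.5-fold (counting interval 29.9 to 45.1) at P15, 15.9-fold (counting interval 14.0 to 18.1) at P25 and 4.78-fold (counting interval 3.77 to 6.06) at 8 weeks, a falling series in these 3 libraries that was not tested. An Mmp11 UMI was present in 171 of 324, 359 of 486 and 27 of 66 Dio2 cells. Thinned to 3000 UMIs, the shares were 37.9%, 48.4% and 28.1%, against 1.92%, 1.09% and 2.11% in Krt14 cells, and each Dio2 share was above that of Mmp3 in the same library. Of the 324 Dio2 cells at P15, 136 also held at least 5 UMIs of the epithelial genes Krt5 and Trp63, as did 5 of the 486 in the P25 library and 0 of the 66 in that of 8 weeks. Mmp3 stood at 2.68 CPM in those 136 cells and at 2613 CPM in the other 188, and Mmp11 at 13.4 and 1146 CPM. Both stromelysins at P15 were thus far higher in the cells under that limit. Of the 27 cells with at least 10 Mmp3 UMIs at P15, 11 held a Krt5 UMI and 0 a Trp63 UMI. When the Dio2 cells past the limit and the Csf1r cells with osteoclast UMIs were left out together, Mmp3 and Mmp11 were still called, with log2 fold changes of 9.60 and 4.12. The limit of 5 UMIs was set after these values were seen.

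Among collagenases, Mmp8 (neutrophil collagenase) was made by S100a8 cells, with 1826 CPM at P15 in 405 cells and with 2419 and 1692 CPM in the 12 and 4 cells of the later ages. These cells held 90.1%, 84.8% and 87.5% of all Mmp8 UMIs, while every mesenchymal gate of at least 20 cells lay at 0 to 3.14 CPM. An Mmp8 UMI was seen in 86.7% of S100a8 cells at P15 and in 3.35% of Hand2 cells, and in 86.5% and 1.69% after thinning, with unthinned median depths of 6996 and 18649 UMIs. In the mesenchymal gates the P15 levels were above those of the later ages, and P15 was also the library with most S100a8 cells, whose part in these low levels was not tested. Csf1r cells had 6.76, 2.76 and 4.16 CPM and were called above the mesenchymal mean (adjusted p = 0.000122), from a level far below that of S100a8 cells.

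Mmp13 (collagenase 3, chr9:7272514-7283331), the main interstitial collagenase of mouse bone and cartilage, was made across the mesenchyme, least in Ifitm5 cells and in Ibsp cells with Hand2. Dio2 cells held 1070.0 CPM (P15), 227 CPM (P25) and 44.8 CPM (8 weeks), Hand2 cells 335, 170.4 and 105 CPM, and Ibsp cells without Hand2 80.1, 129 and 28.0 CPM. Ifitm5 cells had only 49.3, 19.6 and 3.47 CPM, and Ibsp cells with Hand2 28.2, 22.3 and 11.1 CPM. These 2 gates were the lowest of the mesenchyme at each age, but neither passed the test against Ibsp cells without Hand2: the log2 fold change was -1.83 for Ifitm5 against Ibsp cells without Hand2 (adjusted p = 0.0637) and -1.84 for Ibsp cells with against without Hand2 (adjusted p = 0.0753). Most Mmp13 UMIs, 78.0%, 83.2% and 91.6% of the total, lay in cells of no gate. When these were divided by Ogn, a small proteoglycan gene of connective tissue, after the values were seen, the cells with Ogn (2465, 1966 and 1410) held 718, 814 and 376 CPM and those without 84.2, 175 and 90.9 CPM. Ungated cells with Ogn were thus the richest in Mmp13 at P25 and 8 weeks among classes of at least 20 cells, and stood below Dio2 cells at P15. The Rgs5 gate held 230.3 CPM at P15 and 1433 and 439.7 CPM in 11 and 8 cells that carried few mural markers. Krt14 cells were called lower than the mesenchymal mean (log2 fold change -1.84 ± 0.44 SE, adjusted p = 0.00192), a call that ended without the library term (adjusted p = 0.0871).

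The gelatinases split by cell type. Mmp2 (gelatinase A, chr8:92827291-92853420), the constitutive gelatinase of connective tissue, was the highest Mmp gene of both Ibsp gates and of Ifitm5 cells at every age. Ibsp cells without Hand2 had 719.8 CPM (P15), 1061 CPM (P25) and 1028 CPM (8 weeks). Levels in Dio2 cells were 536, 1451 and 1143 CPM, in Hand2 cells 403, 736 and 816 CPM and in Ifitm5 cells 534, 954 and 823 CPM. All mesenchymal gates other than Rgs5 overlapped in range, and none of the 4 comparisons within the mesenchyme called it, whereas it was lower in Krt14 cells, at 49.2, 65.3 and 29.5 CPM (log2 fold change -3.48 ± 0.27 SE, adjusted p = 3.07e-08), and in Csf1r cells, at 81.4, 145 and 187 CPM (log2 fold change -2.15 ± 0.26 SE, adjusted p = 2.76e-06). The Rgs5 cells of P15 held 134 CPM, a log2 ratio of -1.58 to Hand2 cells of the same library, with no replicate.

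Mmp9 (gelatinase B, chr2:164940780-164955850), the gelatinase of neutrophils and osteoclasts, was highest in S100a8 cells, at 1104 CPM at P15 and 2009 and 2840.2 CPM in the few cells of the later ages. Csf1r cells had 179, 4.91 and 179 CPM, and 38, 7 and 11 of them had a UMI. At P15, 35 of the 385 Csf1r cells held at least 3 UMIs of the osteoclast genes Atp6v0d2, Ocstamp and Dcstamp, and Mmp9 was 1016 CPM in them and 13.1 CPM in the other 350. At 8 weeks no Csf1r cell met that limit and Mmp9 was as high as at P15, in 25 cells. The call of Mmp9 in Csf1r cells (log2 fold change 2.26 ± 0.62 SE, adjusted p = 0.00636, higher in 2 of 3 libraries) ended without P15 (adjusted p = 0.745) or without 8 weeks (adjusted p = 0.0864) and without the epithelial-marker Dio2 cells and the osteoclast-marker Csf1r cells (adjusted p = 0.867). Among mesenchymal gates Mmp9 was highest in Ibsp cells with Hand2 at P15 and P25, with 144 CPM (P15), 52.7 CPM (P25) and 47.6 CPM (8 weeks), against 13.6, 19.2 and 25.4 CPM in Ibsp cells without Hand2 and 3.42, 3.29 and 1.30 CPM in Ifitm5 cells. The ratio of the 2 Ibsp gates was 10.6-fold (counting interval 8.30 to 13.4) at P15, from 35 cells with Hand2 of which 10 held 77.2% of the UMIs, 2.74-fold (counting interval 2.36 to 3.20) at P25 and 1.87-fold (counting interval 1.49 to 2.37) at 8 weeks. Cells with Hand2 were higher in 3 of 3 libraries, but the difference did not pass edgeR's test (log2 fold change 1.85 ± 0.80 SE, adjusted p = 0.286), and the lower level in Ifitm5 than in Ibsp cells without Hand2 did not either (log2 fold change -2.44 ± 0.92 SE, adjusted p = 0.172). Osteoclast markers summed to 231, 378 and 484 CPM in Ibsp cells with Hand2 and to 409, 762 and 735 CPM in those without, and their part in the Mmp9 values was not tested.

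**Figure D4:**
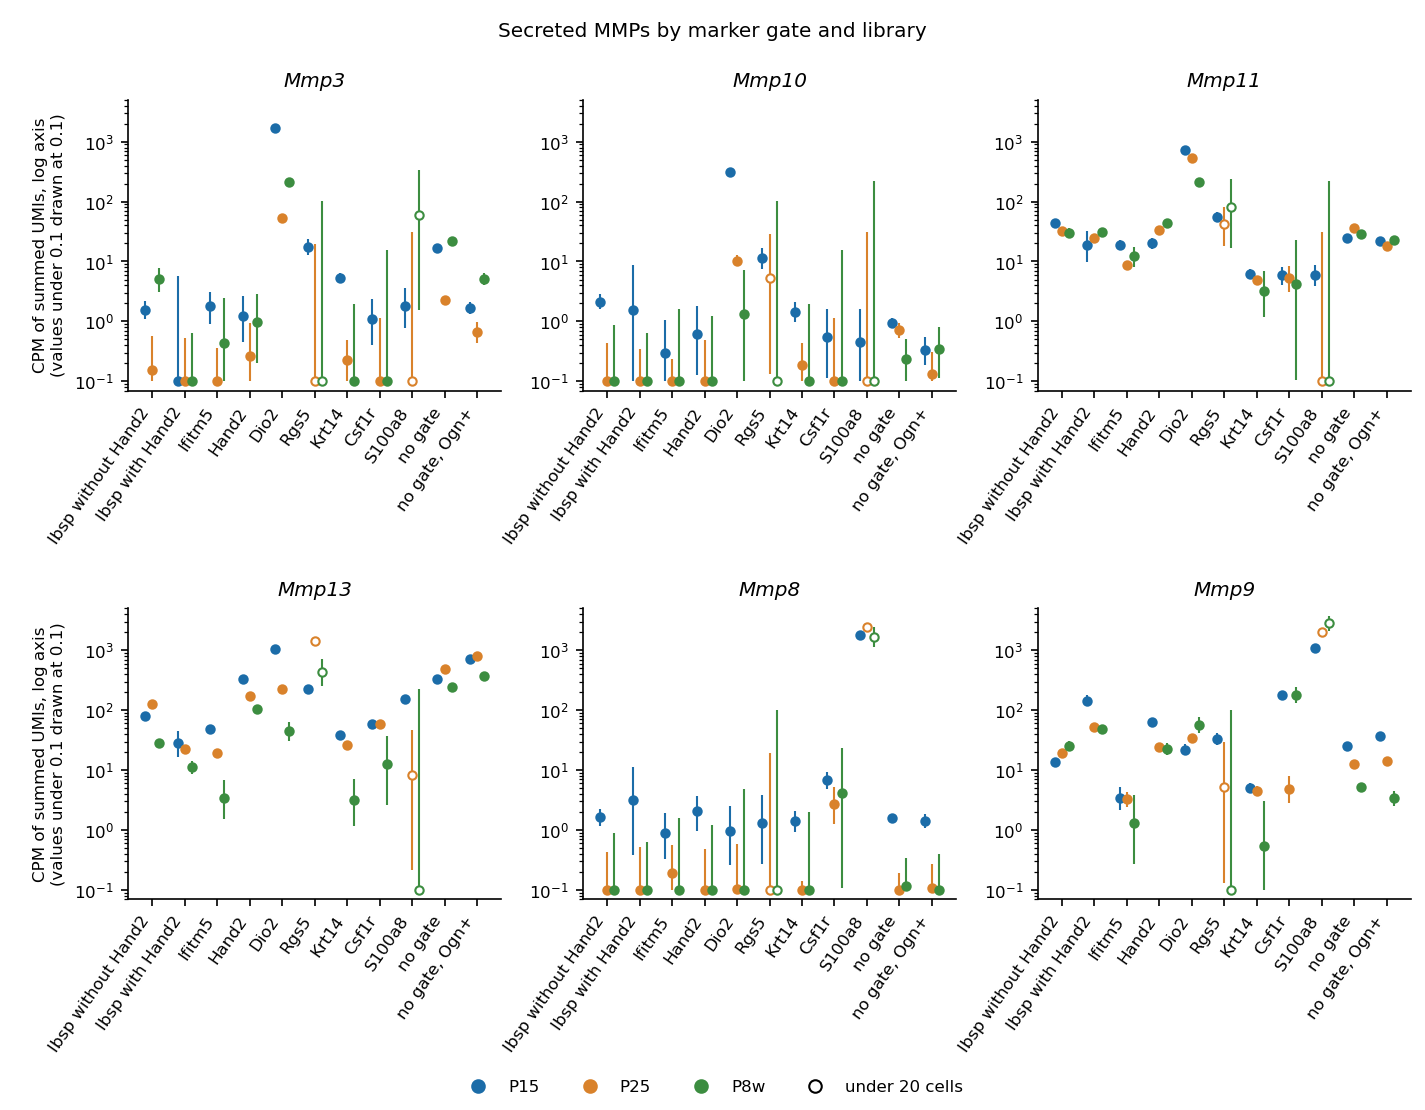
Level of secreted Mmp genes (vertical axis, CPM on a log10 scale, with 95% Poisson intervals that cover counting error only) by gate (horizontal axis) and library; values under 0.1 CPM are drawn at 0.1 and open symbols mark gates of under 20 cells. Mmp3 stands out in Dio2 cells at all 3 ages, Mmp8 in S100a8 cells, and Mmp13 has its lowest mesenchymal values in Ifitm5 cells and Ibsp cells with Hand2, without a call. The last 2 positions are the cells of no gate and those of them with Ogn.

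Mmp14 (MT1-MMP, chr14:54431612-54445364), the cell-surface collagenase that activates proMMP2, was made throughout the mesenchyme. Its levels were 767 CPM (P15), 554 CPM (P25) and 597 CPM (8 weeks) in Dio2 cells, 411, 574 and 854 CPM in Hand2 cells and 475, 443 and 554 CPM in Ibsp cells without Hand2. Ifitm5 cells were lower than these 3 gates at every age, at 293, 251 and 364 CPM, but the difference from Ibsp cells without Hand2 did not pass the test (log2 fold change -0.50 ± 0.27 SE, adjusted p = 0.377). Both Krt14 cells (105, 67.5 and 58.0 CPM with log2 fold change -2.34 ± 0.26 SE, adjusted p = 1.03e-06) and Csf1r cells (165, 91.4 and 216 CPM with log2 fold change -1.43 ± 0.25 SE, adjusted p = 0.000138) were lower than the mesenchymal mean in all 3 libraries. Mmp16 (MT3-MMP, chr4:17852893-18119145), which also activates proMMP2, set Ifitm5 cells apart, with 128 CPM (P15), 123 CPM (P25) and 91.2 CPM (8 weeks). Ibsp cells without Hand2 had 23.3, 28.7 and 39.8 CPM, those with Hand2 29.8, 24.7 and 35.0 CPM, and Dio2 cells 14.5, 14.7 and 23.7 CPM. The Ifitm5 levels lay above those of every other gate at each age, and the gain over Ibsp cells without Hand2 was called (log2 fold change 2.17 ± 0.27 SE, adjusted p = 0.000869, higher in 3 of 3 libraries). It was 5.47-fold (counting interval 4.90 to 6.11) at P15, 4.28-fold (counting interval 3.83 to 4.80) at P25 and 2.29-fold (counting interval 1.86 to 2.83) at 8 weeks. The call ended without P25 (adjusted p = 0.173). The other membrane-type genes were low. Mmp15 was called higher in Krt14 cells, at 4.12, 3.74 and 4.83 CPM (log2 fold change 2.58 ± 0.47 SE, adjusted p = 0.000162), which no alternative ended, and Mmp17 stayed at or under 5.30 CPM and Mmp24 under 1 CPM in every gate. Mmp25 (leukolysin) was at 35.3 CPM in S100a8 cells at P15 and at 176 CPM in the 12 cells of P25, and had 0 UMIs in the mesenchymal gates apart from 1 UMI in Dio2 cells at P25. Csf1r cells held 0.365, 7.36 and 0 CPM and were called (adjusted p = 0.000519), a call that ended without P25 (adjusted p = 0.113) and with DESeq2 (adjusted p = 0.266) and was not tested without P15.

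Mmp12 (macrophage elastase, chr9:7344381-7369499) was highest in Csf1r cells at P15 and P25 among gates of at least 20 cells. Csf1r cells held 68.8, 5.52 and 0 CPM, and the mesenchymal gates at most 0.884 CPM. All cells together held 456, 137 and 17 Mmp12 UMIs, so at 8 weeks all 17 lay outside the Csf1r gate. The Csf1r share of the UMIs at P15 and P25 is not given here. It was called in Csf1r cells (adjusted p = 1.69e-07, higher in 2 of 3 libraries), and no alternative that tested it ended the call, which could not be made without P15. Mmp12 passed the filter on low counts through no mesenchymal gate, so the direction of this call was largely fixed in advance. At P15 it was 224 CPM in the 35 cells with osteoclast UMIs and 38.1 CPM in the other 350. The 25 Csf1r cells of 8 weeks had 0 UMIs, which allows up to 12.5 CPM, so a level like that of P25 was not detectable there. Krt14 cells were called higher as well (log2 fold change 2.89 ± 0.79 SE, adjusted p = 0.00582), from at most 1.41 CPM, and that call ended with DESeq2 (adjusted p = 0.107) and could not be made without P15. Mmp19, a secreted MMP that digests basement membrane proteins, was shared by Csf1r cells, at 59.7, 27.6 and 12.5 CPM, and Dio2 cells, at 29.3, 59.99 and 48.8 CPM. Hand2 cells had 4.48, 17.3 and 26.5 CPM and Ifitm5 cells 5.05, 2.72 and 6.08 CPM. Dio2 cells exceeded Hand2 cells at each age (log2 fold change 1.61 ± 0.51 SE, adjusted p = 0.0396), a call that ended without P25 (adjusted p = 0.324) or without 8 weeks (adjusted p = 0.0977), without the library term (adjusted p = 0.0729), without the filter on low counts (adjusted p = 0.0511) and with doubled gate thresholds (adjusted p = 0.0511). The call above the mesenchymal mean in Csf1r cells (log2 fold change 1.64 ± 0.40 SE, adjusted p = 0.00267, higher in 2 of 3 libraries) ended without P15 (adjusted p = 0.182). Mmp23, a small MMP without a hemopexin domain that is anchored in the membrane as a precursor, peaked in Hand2 cells at all 3 ages, with 167, 235 and 222 CPM. Ibsp cells with Hand2 had 130.3, 130.1 and 136 CPM, those without 92.6, 121 and 102 CPM, and Dio2 cells 45.5, 90.5 and 68.6 CPM, which was called lower than Hand2 cells (log2 fold change -1.65 ± 0.37 SE, adjusted p = 0.00628). That call ended without P25 (adjusted p = 0.0742). Mmp27 was called in Csf1r cells (adjusted p = 0.00864) from 4.60 CPM at P25 and 0 UMIs at the other ages, so 1 library carries it, and DESeq2 ended the call. Mmp20 (enamelysin), the MMP of forming enamel, reached at most 4.49 CPM in any gate of at least 20 cells, with 4.43 CPM in Krt14 cells at P15, where ameloblast markers summed to 5052 CPM. Mmp28 (epilysin) was highest in Ibsp cells with Hand2 at each age, at 9.42, 5.18 and 6.97 CPM, against 5.54, 3.51 and 6.23 CPM in those without, a difference that did not pass the test (log2 fold change 0.33 ± 0.58 SE, adjusted p = 0.904). Mmp21 had 1 UMI in all cells.

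Of the procollagen N-proteinases, which remove the N-propeptide so that collagen can form fibrils, Adamts2 (chr11:50602084-50807573) dominated. Dio2 cells had 177 CPM (P15), 407 CPM (P25) and 361 CPM (8 weeks), Ibsp cells without Hand2 170.5, 192 and 207 CPM, Ifitm5 cells 145, 236 and 220.5 CPM and Hand2 cells 167, 146 and 174 CPM. Ibsp cells with Hand2 were the lowest of the mesenchyme at each age, at 102, 94.9 and 111 CPM, and their difference from Ibsp cells without Hand2 did not pass the test (log2 fold change -0.91 ± 0.34 SE, adjusted p = 0.200). No comparison within the mesenchyme called Adamts2 with all cells of the gates, although without the Dio2 cells of epithelial and Csf1r cells of osteoclast UMIs Dio2 against Hand2 cells did (log2 fold change 1.06, adjusted p = 0.0172). It was lower in Krt14 cells (log2 fold change -3.43 ± 0.34 SE, adjusted p = 4.52e-07) and Csf1r cells (log2 fold change -2.40 ± 0.34 SE, adjusted p = 2.18e-05). Rgs5 cells held 309 CPM at P15, above the other gates of that library. Adamts3 and Adamts14, the other 2 of the group, stayed at 26.6 CPM or less in every gate.

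The proteoglycanases, which cleave versican and aggrecan, did not share 1 gate. Adamts1 (chr16:85793827-85803113) stood at 191 CPM (P15), 352 CPM (P25) and 602 CPM (8 weeks) in Hand2 cells, 247, 56.5 and 103 CPM in Dio2 cells and 107, 106 and 96.6 CPM in Ibsp cells without Hand2. The Rgs5 cells of P15 had 576 CPM, a log2 ratio of 1.59 to Hand2 cells. Hand2 cells exceeded both other gates at P25 and 8 weeks, but at P15 Dio2 cells were higher. The 136 Dio2 cells of P15 with at least 5 epithelial UMIs held 438 CPM and the other 188 held 139 CPM, under the Hand2 level. Neither Dio2 against Hand2 (log2 fold change -1.50 ± 0.54 SE, adjusted p = 0.0649) nor Ibsp without Hand2 against Hand2 (log2 fold change -1.75 ± 0.53 SE, adjusted p = 0.0578) was called, but with the cells of epithelial and osteoclast UMIs left out, Dio2 against Hand2 was (log2 fold change -1.92, adjusted p = 0.0113). Adamts4 was highest in Dio2 cells at P15 and P25 and in Hand2 cells at 8 weeks, with 86.7, 83.2 and 75.2 CPM and 38.5, 54.1 and 93.0 CPM, and Ifitm5 cells had 12.6, 15.6 and 18.7 CPM. Ibsp cells lay between, at 25.7, 23.9 and 36.4 CPM without Hand2 and 28.2, 24.7 and 45.9 CPM with it. Dio2 against Hand2 cells was not called (log2 fold change 0.48 ± 0.27 SE, adjusted p = 0.246). Adamts5, the other main aggrecanase and the neighbour of Adamts1 on chromosome 16, had 82.3, 70.2 and 78.2 CPM in Hand2 cells and 80.9, 66.1 and 82.5 CPM in Ibsp cells without Hand2, which overlapped. Dio2 cells had 60.8, 31.3 and 170.1 CPM, the highest gate of at least 20 cells at 8 weeks and lower than Hand2 cells at P15 and P25, and the Rgs5 cells of P15 had 87.1 CPM, the highest of that library's gates. In Ibsp cells with Hand2 it was 20.4, 37.1 and 53.1 CPM, below both at each age, without passing the test against Ibsp cells without Hand2 (log2 fold change -0.98 ± 0.43 SE, adjusted p = 0.295). Adamts9, which also acts in the clearance of versican, peaked in Hand2 cells among gates of at least 20 cells at all 3 ages, with 112, 69.4 and 61.9 CPM. It was 44.1, 32.1 and 35.6 CPM in Dio2 cells, called lower (log2 fold change -1.14 ± 0.37 SE, adjusted p = 0.0415), and 14.1, 10.4 and 16.7 CPM in Ibsp cells with Hand2. For the Dio2 call, 8 of 15 alternatives ended it, among them leaving out a library, without P15 (adjusted p = 0.0626) or without P25 (adjusted p = 0.118) or without 8 weeks (adjusted p = 0.111). The low members of the group were Adamts8, Adamts15 and Adamts20. Adamts15 was called lower in Ibsp cells with than without Hand2 (log2 fold change -3.71 ± 0.97 SE, adjusted p = 0.0488), from 1.07, 0.703 and 3.12 CPM to 0, 0 and 0.340 CPM, and 9 of 14 alternatives ended that call, among them leaving out a library, without P15 (adjusted p = 0.0643) or without P25 (adjusted p = 0.534) or without 8 weeks (adjusted p = 0.191). Adamts20 was highest in Ibsp cells with Hand2 at each age among gates, at 14.1, 9.88 and 12.1 CPM, with no call (log2 fold change 1.52 ± 0.54 SE, adjusted p = 0.176).

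Adamts7 and Adamts12, the pair known to cleave cartilage oligomeric matrix protein, were higher in Dio2 than in Hand2 cells. Adamts7 was 30.8 CPM (P15), 36.3 CPM (P25) and 25.1 CPM (8 weeks) in Dio2 cells and 5.91, 4.22 and 4.58 CPM in Hand2 cells, and was called higher (log2 fold change 2.65 ± 0.34 SE, adjusted p = 5.18e-05, 3 of 3 libraries). Ibsp cells had 6.57, 6.79 and 4.55 CPM without Hand2 and 3.14, 3.86 and 3.06 CPM with it. Adamts12 was 13.8, 20.6 and 10.5 CPM and 2.24, 3.96 and 3.60 CPM in the same gates (log2 fold change 2.24 ± 0.31 SE, adjusted p = 9.89e-05, 3 of 3 libraries). No alternative ended either call. At P15 the Rgs5 cells held 16.4 CPM of Adamts7 and 31.4 CPM of Adamts12, log2 ratios of 1.33 and 3.32 to Hand2 cells. Adamts12 was also called in Ibsp cells without Hand2 against Hand2 cells, at 5.94, 11.6 and 6.95 CPM (log2 fold change 1.40 ± 0.30 SE, adjusted p = 0.00668), which ended without P25 (adjusted p = 0.258) and without the library term (adjusted p = 0.127). Among the other ADAMTS genes, Adamts17 was highest in Dio2 cells at P15 and P25 and in Hand2 cells at 8 weeks, with 69.5, 22.1 and 9.23 CPM and 10.8, 8.45 and 12.1 CPM. The P15 value of Dio2 cells came mostly from the 136 with epithelial UMIs, which held 173 CPM against 11.0 CPM in the other 188 and 16.2 CPM in Krt14 cells, and Dio2 against Hand2 cells was not called (log2 fold change 1.39 ± 0.50 SE, adjusted p = 0.0647). It was lower in Ibsp cells without Hand2, at 4.51, 2.50 and 1.68 CPM (log2 fold change -1.90 ± 0.53 SE, adjusted p = 0.0374), a call that ended without P25 (adjusted p = 0.257) or without 8 weeks (adjusted p = 0.162), without the library term (adjusted p = 0.250), with halved gate thresholds (adjusted p = 0.0586) and without the epithelial-marker Dio2 cells and the osteoclast-marker Csf1r cells (adjusted p = 0.0643). Adamts16 and Adamts19 were highest in Hand2 cells at each age. Adamts16 was 11.8, 10.7 and 1.96 CPM in Hand2 cells and at most 1.26 CPM in any other gate. Adamts19 was 4.08, 20.1 and 8.51 CPM there and at most 1.04 CPM in any other gate of at least 20 cells. Both were called lower in Ibsp cells without Hand2 (adjusted p = 0.00245 and 0.000122) and in Dio2 cells (adjusted p = 0.00565 and 0.000254), in 3 of 3 libraries. Both genes passed the filter on low counts only through Hand2 cells, so the direction of these calls was largely fixed in advance. Without P25, these adjusted p-values were 0.121 and 0.0503 for Ibsp cells and 0.116 and 0.0818 for Dio2 cells. Adamts16 was not tested without P15. The cells that carry both Ibsp and Hand2 were low for both, at 0, 0.565 and 0 CPM and 0, 1.04 and 0.680 CPM, although they carried the Hand2-gate marker list. Adamts6 was called higher in Ibsp cells without Hand2 than in Hand2 cells (log2 fold change 1.51 ± 0.43 SE, adjusted p = 0.0409), at 6.53, 17.3 and 10.5 CPM against 2.24, 5.41 and 4.91 CPM, and 6 of 15 alternatives ended the call, among them leaving out a library, without P25 (adjusted p = 0.335) or without 8 weeks (adjusted p = 0.233). Adamts10 was even across the mesenchyme, at 20.5 to 44.4 CPM, and Adamts18 had its highest value, 33.6 CPM, in Hand2 cells at P15.

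The 3 inhibitors found in these cells differed in where they were highest. Timp1 (X-linked, chrX:20870166-20874735), a secreted inhibitor of most MMPs, was highest in the Ibsp cells without Hand2 and the Ifitm5 cells, with 618 CPM (P15), 481 CPM (P25) and 354 CPM (8 weeks) in Ibsp cells without Hand2 and 462, 641 and 394 CPM in Ifitm5 cells. Ibsp cells with Hand2 had 352, 182 and 207 CPM, Dio2 cells 187, 200.5 and 196 CPM and Hand2 cells 55.8, 62.8 and 72.7 CPM. Hand2 cells were the lowest of these 5 gates at every age and did not overlap any of the others. The excess of Ibsp cells without Hand2 over Hand2 cells was called (log2 fold change 2.93 ± 0.37 SE, adjusted p = 0.000118) and no alternative ended it. Dio2 cells exceeded Hand2 cells too (log2 fold change 1.57 ± 0.36 SE, adjusted p = 0.00653), a call that ended without P25 (adjusted p = 0.115) or without 8 weeks (adjusted p = 0.0518). Within Ibsp cells, those with Hand2 were lower in 3 of 3 libraries without passing the test (log2 fold change -1.01 ± 0.35 SE, adjusted p = 0.153). Timp2 (chr11:118301069-118355740), which besides inhibiting MMPs takes part with MT1-MMP in the activation of proMMP2, was high in every mesenchymal gate and peaked in Hand2 cells, with 905 CPM (P15), 1310.0 CPM (P25) and 1579 CPM (8 weeks). Ifitm5 cells were the lowest mesenchymal gate in each library, at 418, 554 and 661 CPM, which did not pass the test against Ibsp cells without Hand2 (log2 fold change -0.59 ± 0.40 SE, adjusted p = 0.513). Csf1r cells, in which Timp1 and Timp3 were called lower, held 389, 606 and 637 CPM of Timp2, which was not called (log2 fold change -0.52 ± 0.33 SE, adjusted p = 0.212), and S100a8 cells held 307 CPM at P15. In Krt14 cells it was 112, 69.9 and 20.4 CPM, called lower (log2 fold change -3.36 ± 0.41 SE, adjusted p = 4.14e-06). Timp3 (chr10:86300372-86349506), the inhibitor that binds to matrix and also blocks ADAMTS4 and ADAMTS5, was the highest TIMP of both Ibsp gates, other than in P25 cells without Hand2. Its levels were 1279 CPM (P15), 974 CPM (P25) and 1720.3 CPM (8 weeks) without Hand2 and 1175, 1180.4 and 1861 CPM with Hand2, which overlapped. Ifitm5 cells had 620.4, 184 and 985 CPM, Hand2 cells 333, 381 and 778 CPM and Dio2 cells 156, 142 and 231 CPM. Both Ibsp gates were above Hand2 cells, and Hand2 cells above Dio2 cells, at every age. Ibsp cells without Hand2 were called higher than Hand2 cells (log2 fold change 1.52 ± 0.41 SE, adjusted p = 0.0339), but the call ended without P15 (adjusted p = 0.134) or without P25 (adjusted p = 0.173) or without 8 weeks (adjusted p = 0.0878), without the library term (adjusted p = 0.0807) and with halved gate thresholds (adjusted p = 0.0603). Dio2 cells were called lower than Hand2 cells (log2 fold change -1.49 ± 0.41 SE, adjusted p = 0.0211), and this ended without P25 (adjusted p = 0.0952) or without 8 weeks (adjusted p = 0.105). The log2 fold change of Ifitm5 against Ibsp cells without Hand2 was -1.08 (adjusted p = 0.172), with the widest gap at P25. The link of Timp3 with Ibsp cells was known when the gates were picked. Rgs5 cells held 1169 CPM at P15, near the Ibsp cells of that library. Timp4 was not tested, with at most 0.760 CPM.

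**Figure D5:**
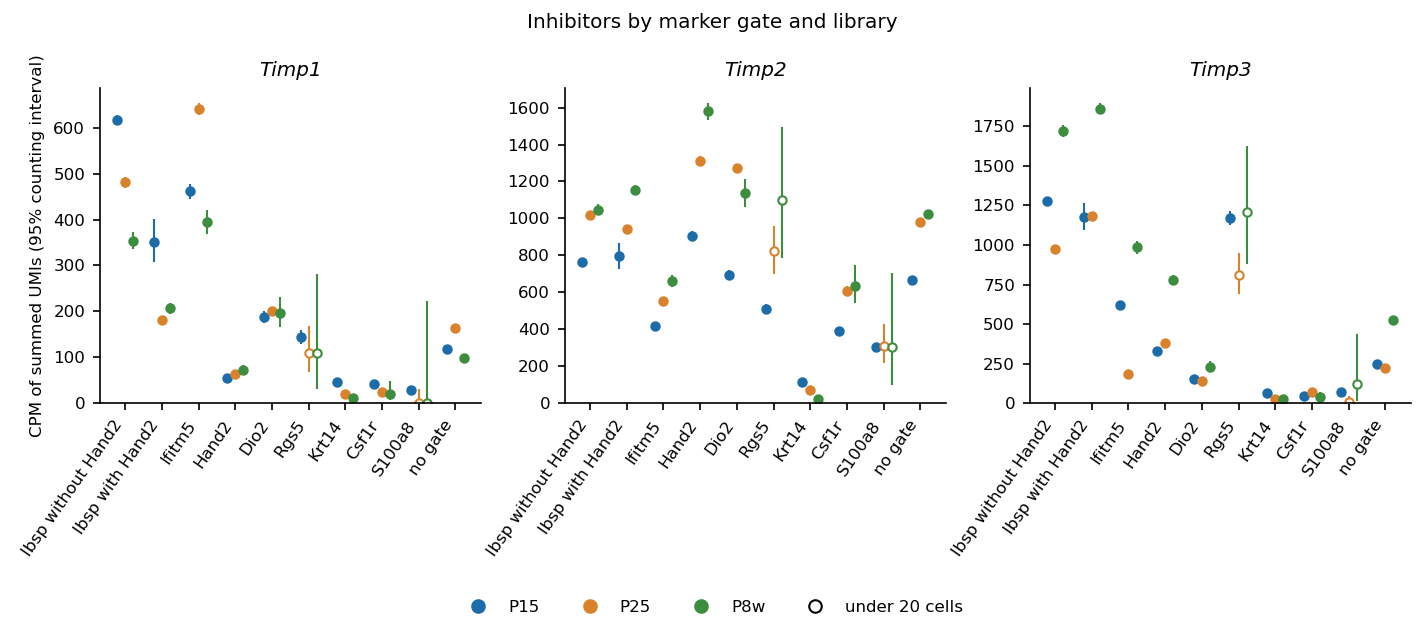
Level of Timp1, Timp2 and Timp3 (vertical axis, CPM, with 95% Poisson intervals that cover counting error only) by gate (horizontal axis) and library, with open symbols for gates of under 20 cells. Timp1 is highest in Ibsp cells without Hand2 and in Ifitm5 cells, Timp3 in both Ibsp gates with the Rgs5 cells of P15 near them, Timp2 is high across the mesenchyme with its peak in Hand2 cells, and Krt14 cells are low for all 3.

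A list of 21 relatives and regulators (the MMP inhibitor Reck, the inducer Bsg, the activating convertases Furin, Pcsk5 and Pcsk6, the clearance receptor Lrp1, ADAMTS-like proteins, papilin and ADAM sheddases) was counted the same way, all 21 being tested. In Dio2 against Hand2 cells, 3 of 21 were called higher, against 7.53% of all genes, and 2 lower (Adamtsl1 and Thsd4), against 4.35%. Adamtsl4 (log2 fold change 1.59, adjusted p = 0.00392) lost its call without P25 (adjusted p = 0.158) and Lrp1 (log2 fold change 1.15, adjusted p = 0.0244) without P15 (adjusted p = 0.0652) or without P25 (adjusted p = 0.239). Papln (adjusted p = 0.0189) was 17.4 CPM in the 136 Dio2 cells of P15 with epithelial UMIs and 1.14 CPM in the other 188, had 1 UMI in Dio2 cells at each later age and 0 in Hand2 cells, lost its call without P25 (adjusted p = 0.0739) or without 8 weeks (adjusted p = 0.0817) and did not pass the filter on low counts without P15 or without those cells. Papln could not pass that filter through Hand2 cells, so the direction of its call, 1 of the 3 higher, was largely fixed in advance. Adamtsl1 lost its call without P25 (adjusted p = 0.106), and Thsd4 kept it. The median log2 fold change of the list was 0.12 against 0.03 over all genes. In Ibsp cells without Hand2 against Hand2 cells, 1 was higher (Adam33; background 3.65%) and 2 were lower (Adamtsl3 and Thsd4; 1.95%), of which the call of Adam33 held without any 1 library, while both others ended without P25, Adamtsl3 also without P15 and Thsd4 without 8 weeks. Ifitm5 against Ibsp cells without Hand2 gave 1 higher, Adam12 (log2 fold change 1.99, adjusted p = 0.0342), an ADAM sheddase, against 1.00% of all genes, and 1 lower, Adamtsl1, against 1.40%. Ibsp cells with against without Hand2 gave 0 higher (0.421%) and 1 lower (2.04%), again Adam12 (log2 fold change -2.82, adjusted p = 0.0366). These 3 calls ended without P25 and without 8 weeks. Csf1r cells had 5 higher, the sheddases Adam8, Adam9, Adam15, Adam17 and Adam19, and 7 lower, where 19.5% and 13.8% of all genes were called, so the share higher was near the background. Krt14 cells had 2 higher (Adam8 and Papln, background 16.8%) and 11 lower (16.5%), among them the inhibitor Reck (log2 fold change -4.03, adjusted p = 1.42e-07). Papln was only 1.96, 0.378 and 0.537 CPM in Krt14 cells. Dio2 cells, 1 of the gates in the mesenchymal mean, held 7.02, 0.105 and 1.32 CPM, more at P15 and 8 weeks. This call of Papln too could not be made without P15 or without the Dio2 cells of epithelial UMIs. Of 4 proteoglycan substrates only Vcan and Acan were tested. Acan was higher in Ibsp cells without Hand2 than in Hand2 cells (log2 fold change 2.90, adjusted p = 0.00894) and lower in Ibsp cells with than without Hand2 (log2 fold change -3.04, adjusted p = 0.0243), while Vcan passed in neither (log2 fold change 0.40, adjusted p = 0.767 for the first). Both Acan calls ended without P25 and without 8 weeks. Vcan and Acan were both called lower in Krt14 cells, and the Vcan call ended without P25 (adjusted p = 0.0848).

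Each age is a single library, so levels across ages are given with counting intervals and no test. In Dio2 cells, Mmp13 at P15 was 23.9-fold (counting interval 17.1 to 34.5) its level at 8 weeks and Mmp11 3.51-fold (counting interval 2.99 to 4.15), while Mmp2 was lower at P15, 0.468-fold (counting interval 0.433 to 0.507). These ratios take the whole gate, which at P15 included cells past the limit of epithelial UMIs and at 8 weeks did not. At P15 the 188 of 324 Dio2 cells under that limit held 21048 of the gate's 21497 Mmp UMIs. The cells past it thus lowered the summed Mmp level of the gate at P15, and Mmp11 was higher without them, as given above. They lowered the P15 level of Mmp2 as well, so its ratio overstates the gap to 8 weeks among cells under the limit. Age ratios without those cells are not given here. In Hand2 cells, Adamts1 was 0.316-fold (counting interval 0.292 to 0.342) and Mmp14 0.482-fold (counting interval 0.455 to 0.511) the 8-week level, both lower at P15, and Timp3 was 0.428-fold (counting interval 0.401 to 0.456). Ibsp cells without Hand2 held more Timp1 at P15 than at 8 weeks, 1.75-fold (counting interval 1.66 to 1.85), and less Timp3, 0.743-fold (counting interval 0.724 to 0.763). In Ifitm5 cells Timp3 was lowest at P25, the library with the other gene list, and P15 stood at 3.37-fold (counting interval 3.21 to 3.53) that level. Depth per cell differed between the libraries, and the gates of later ages held different numbers of cells, so age, library and the cells that passed each gate cannot be told apart.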

How the data were processed

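Single-cell RNA-seq of FACS-sorted Pthrp-mCherry+ molar cells at P15, P25 and 8 weeks (1 library each) was analyzed. The authors deposited raw UMI counts per gene and cell. The submitters' processing notes name Cell Ranger 6.1.2 and mm10 for every library, whereas the matrix header of P25 names Cell Ranger 6.0.1, and parameters are not given in the sources used here. The deposited cells carry no annotation, so cells were gated by marker UMIs: at least 3 UMIs (2 for Hand2 and Csf1r) and at least, per 10000 UMIs of the cell, 20 for Ibsp, 5 for Ifitm5, 1 for Hand2, 2 for Dio2, 10 for Rgs5, 20 for Krt14, 1 for Csf1r and 100 for S100a8. Cells passing gates of several lineages (mesenchymal, Krt14, Csf1r and S100a8), and Ibsp cells with an unclear Hand2 count, were left out of the gates. Cells passing several mesenchymal gates took the first in the order Ifitm5, Ibsp, Rgs5, Dio2 and Hand2. Ifitm5 cells can therefore pass the Ibsp or Hand2 limits as well, and Hand2 cells passed no other mesenchymal gate. A gate marker is no finding within its gate, and gates rest on counts, so cells with few UMIs can be missed.

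Counts of the 21446 shared genes were summed per gate and library. The 23 sums of at least 20 cells entered 1 fit with gate and library as terms (edgeR 4.0.16 in R 4.3.3, TMM factors 0.569 to 1.24, filter on low counts, robust quasi-likelihood test, 12 residual degrees of freedom), which is the pseudobulk approach of the study with another tool. With the library as a term, p-values rest on how far differences between gates vary from library to library, over all gates in the fit. These 3 libraries differ in age and are not replicates of 1 age. Levels are CPM of summed counts with exact Poisson intervals, shares are given after thinning cells to 3000 UMIs (3455 of 27089 cells were shallower and left out) with exact Clopper-Pearson intervals, both at 95% and for counting error only. A count of 0 allows 3 counts. Of the members, 8 were not tested for low counts (Mmp1a, Mmp1b, Mmp7, Mmp24, Mmp21, Adamts8, Adamts13 and Timp4).

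The pipeline was tested on simulated data: for Ifitm5 against Ibsp cells without Hand2 over 14010 genes, edgeR recovered 30.21% of genes changed 2-fold and 70% of those changed 4-fold, with 8.33% of calls false. These rates are for an adjusted p under 0.05 alone, without the limit on fold change that calls here also need. Members described by gate and library had at least 50 CPM in a gate of at least 2 libraries or were the highest of their group. Members, gates and lists were chosen with earlier results of these data known, including Mmp3 with Dio2 cells, Timp3 with Ibsp cells and Mmp23, so these are descriptions and not independent support. Alternatives covered no library term, DESeq2 1.42.0 and its size factors, no filter, only the gates compared, halved and doubled thresholds, cells of exactly 1 gate, cells without called doublets (scanpy 1.11.5; 419 at P15, and 565 and 314 by a fixed rate where the automatic call marked 0 and 7), quality limits, and leaving out each library. A call by adjusted p alone on the main fit was also counted as an alternative, and no edgeR call could fail it. Removing Dio2 cells with epithelial UMIs and Csf1r cells with osteoclast UMIs, and dividing ungated cells by Ogn, were chosen after seeing the data.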

Additional observations from a re-analysis of the deposited data

Results flagged for a closer look

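Of 98 pairs of a member and a comparison with at least 20 UMIs over the compared gates in each library, 17 had CPM ratios above 1 in some library and below 1 in another with counting intervals that excluded 1, and 3 of these were beyond 2-fold both ways. The 2-fold limit, the same as for a call, was set after the ratios were seen. All 3 concern Dio2 against Hand2 cells, and the difference between ages was not tested, since each age is 1 library. Mmp13, the collagenase, had Dio2-to-Hand2 ratios of 3.19 (counting interval 3.02 to 3.38) at P15, 1.33 (counting interval 1.24 to 1.43) at P25 and 0.427 (counting interval 0.290 to 0.609) at 8 weeks. It went from 1070.0 CPM in Dio2 cells and 335 CPM in Hand2 cells at P15 to 44.8 and 105 CPM at 8 weeks. Mmp9 ran the other way, with ratios of 0.348 (counting interval 0.272 to 0.442) at P15, 1.37 (counting interval 1.14 to 1.65) at P25 and 2.51 (counting interval 1.67 to 3.73) at 8 weeks. Adamts5, the aggrecanase, had ratios of 0.738 (counting interval 0.628 to 0.866) at P15, 0.446 (counting interval 0.386 to 0.515) at P25 and 2.17 (counting interval 1.74 to 2.70) at 8 weeks. The 297 Dio2 cells of P15 with under 10 Mmp3 UMIs held 529 CPM of Mmp13 and the other 27 held 5352 CPM. The Dio2 gate held 324, 486 and 66 cells, and 136 of those at P15 carried epithelial UMIs. The other 188 cells of P15 held 21048 of the gate's 21497 Mmp UMIs. A different mix of cells within the gate thus moves with the ages, and its part in these ratios was not tested.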

How the results depend on the processing

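Of 124 called member values, 1386 repeats under alternatives gave 1289 with the same direction and call, 97 with the call lost and 0 with the direction turned. Calls lost are given beside the genes described. Each edgeR call has among its repeats the rule of adjusted p alone on the main fit, which it could not fail. That repeat is also within the number of alternatives given for single genes. The values of Rgs5 and S100a8 cells are untested P15 ratios, repeated without leaving out a library. Repeats in which a gene did not pass the filter on low counts were not counted. The 1289 therefore overstate how well the calls hold. The cause of the lost calls was not tested, beyond the fewer sums that a left-out library leaves. For the number of members called in Ifitm5 against Ibsp cells without Hand2 (2), the alternatives gave 1 without the library term, which is the replicate block of this design, 6 with DESeq2, 7 with only the compared gates in the fit, 5 with doubled thresholds, 8 with cells of exactly 1 gate, and 0 to 4 leaving out 1 library. For Ibsp cells with against without Hand2 (1), they gave 0 without the block, 0 without the filter on low counts, 4 with DESeq2, 5 with only the compared gates, 0 with exactly 1 gate, 2 without doublets, and 0 to 5 leaving out 1 library. For Ibsp cells without Hand2 against Hand2 cells (7), they gave 3 without the block, 4 with halved thresholds, and 1 to 8 leaving out 1 library, and for Dio2 against Hand2 cells (12) 5 to 12 leaving out 1 library. Without the cells of epithelial and osteoclast UMIs this last count was 14, with Adamts1, Adamts2 and Adamts15 gained and Adamts9 lost. The counts of calls in both directions together for Krt14 (24), Csf1r (27), Rgs5 (21) and S100a8 cells (30), the 17 members at 50 CPM, and the 18 members found in at least 10% of the thinned cells of a gate in at least 2 libraries stayed within 1.5 times under all alternatives run, although the Csf1r calls higher fell from 6 to 1 without P15. No paired analysis was possible because each age has 1 library with the same replicate number, apart from keeping the library as a block within the fit. TMM scaling of the P15 ratios ended 7 of the 26 lower values of S100a8 cells. Without P15, Mmp10, Mmp12, Mmp25, Mmp27 and Adamts16 did not pass the filter on low counts and were not tested. Calls against gates with few UMIs or 0, such as those of Mmp3, Mmp10, Mmp12, Mmp25, Mmp27 and Adamts15, are limited by depth, as is the Csf1r gate of 8 weeks, in which 0 counts allow up to 12.5 CPM.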

Other observations

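The 199 Rgs5 cells of P15, which carried mural markers, had a protease set of their own among the mesenchymal gates of that library, given as values without a test since 1 library holds them. Adamts1 (576 CPM), Adamts2 (309 CPM), Adamts12 (31.4 CPM) and the low Adamts15 (9.28 CPM, 95% interval 5.75 to 14.2) were all higher there than in the other gates, while Mmp2 was the lowest of the mesenchymal gates, at 134 CPM. Adamts18 was divided by age: Hand2 cells held 33.6, 5.41 and 0 CPM and Ifitm5 cells 4.16, 18.2 and 6.51 CPM, so its highest gate changed from Hand2 at P15 to Ifitm5 at the later ages. In the ungated cells, Mmp3 took up 20.9%, 24.4% and 75.5% of its own UMIs and Timp3 39.9%, 30.2% and 34.0%, where these cells held 60.7%, 44.6% and 56.1% of all UMIs.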
